A study of Mus musculus with 18 samples.

Results

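The 10 scavenger receptor genes Marco, Msr1, Colec12, Cd36, Scarb1, Scarb2, Stab1, Mrc1, Cd163 and Olr1 were followed in bone marrow-derived macrophages (BMMs) of 3 genotypes, with and without lipopolysaccharide (LPS). They were taken by gene name from 38887 annotated genes, and all 10 were matched by identifier in each of the 18 libraries. WT cells came from mice that carry the Cre recombinase in the Lyz2 locus (Lyz2-Cre) and were the wild type of the study. GILZ KO cells came from mice in which Lyz2-Cre deletes a floxed part of Tsc22d3, the gene of the glucocorticoid-induced leucine zipper (GILZ), in myeloid cells. GILZ TG cells came from mice in which Lyz2-Cre switches on a Gilz cDNA in the ROSA26 locus, so all 3 genotypes carry the Cre and the target cells of both models are those that use the Lyz2 promoter. The mice were female, of the C57BL/6J strain and 10 to 23 weeks old, and their bone marrow was differentiated with M-CSF. Each genotype had 3 libraries of untreated cells and 3 libraries of cells treated with 100 ng/ml LPS for 4 h. Whether untreated and LPS libraries with the same replicate number came from the same preparation is not given in the labels.

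Scavenger receptors are membrane proteins of unrelated families that share a taste for polyanionic ligands, such as modified lipoproteins, bacterial surface molecules, dying cells and matrix fragments. Macrophages use them to bind and internalize this material, and several of them hand bacterial ligands over to Toll-like receptors or act together with them. Marco, Msr1 and Colec12 encode trimeric receptors of class A with a collagen-like stalk. Cd36, Scarb1 and Scarb2 encode the class B receptors, which bind lipids at the cell surface or, for Scarb2, serve in the lysosomal membrane. Stab1 (stabilin-1), Mrc1 (the mannose receptor CD206) and Cd163 (the receptor for haptoglobin-hemoglobin complexes) are markers of resident or alternatively activated macrophages. Olr1 encodes LOX-1, a lectin-like receptor for oxidized low-density lipoprotein.

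The libraries held between 14583055 and 38557029 reads on genes, and no pair of libraries was identical. The level of Tsc22d3 matched the labels. In TPM, a level scaled for transcript length and library total, untreated WT libraries gave 14.9 to 18.8, GILZ KO libraries 1.89 to 2.81 and GILZ TG libraries 152.0 to 159.8. With LPS the means were 5.15 ± 0.627, 2.91 ± 0.392 and 131.7 ± 7.65 in the same order (SD, n = 3). Lyz2 was also different, with at least 6766.0 TPM in each WT library and at most 70.3 TPM in each GILZ KO and GILZ TG library. Differences from WT therefore cannot be told apart from a difference in Lyz2, or in the number of copies of the Cre in this locus, which is not given. Both GILZ KO and GILZ TG had low Lyz2. All 8 macrophage markers were above 1 TPM in every library, and their summed level was between 3971.4 and 5046.5 TPM. In GILZ TG replicates 1 and 2 the summed level of 8 stromal markers was between 80.2 and 115.2 TPM, against 4.88 to 21.8 TPM in all other libraries. The sum of 7 neutrophil lineage markers was between 173.5 and 487.7 TPM in these 4 libraries, against 19.1 to 79.3 TPM elsewhere, and that of 6 B lineage markers between 79.4 and 152.9 TPM against 16.7 to 35.9 TPM. The neutrophil marker Ly6g was at 0 in 16 of 18 libraries, and the part of these cells in the results was not tested. All 5 adipocyte and all 5 dendritic cell markers stayed under 1 TPM throughout, and 8 endothelial markers summed to 14.3 TPM at most. The genotype differences of GILZ TG that passed the threshold are given below with and without these libraries. In a bulk culture, fewer cells of a type and less RNA per cell cannot be told apart.

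The members covered a wide range of levels. In untreated WT BMMs, Cd36 was by far the most abundant with 1896.8 ± 252.3 TPM, followed by Stab1 with 467.5 ± 26.0 TPM and Msr1 with 330.0 ± 26.1 TPM (SD, n = 3). Mrc1 was next with 90.1 ± 12.5 TPM. Scarb1 with 71.0 ± 1.66 TPM and Scarb2 with 70.8 ± 4.03 TPM had overlapping values, as did Marco with 31.4 ± 3.51 TPM and Colec12 with 30.4 ± 4.71 TPM. Olr1 (0.443 ± 0.130 TPM) and Cd163 (0.273 ± 0.121 TPM) were the lowest and overlapped as well. All other neighbours in this order did not overlap. Together the 10 genes held between 0.267% and 0.319% of all TPM in untreated WT, and Cd36 alone contributed 60.6% to 65.9% of that. After LPS the sum in WT was between 0.236% and 0.256%. Msr1 was now above Stab1, and Marco with 72.5 ± 10.2 TPM had moved from the seventh place to a level that overlapped with Mrc1 (75.9 ± 13.99 TPM).

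**Figure D1:**
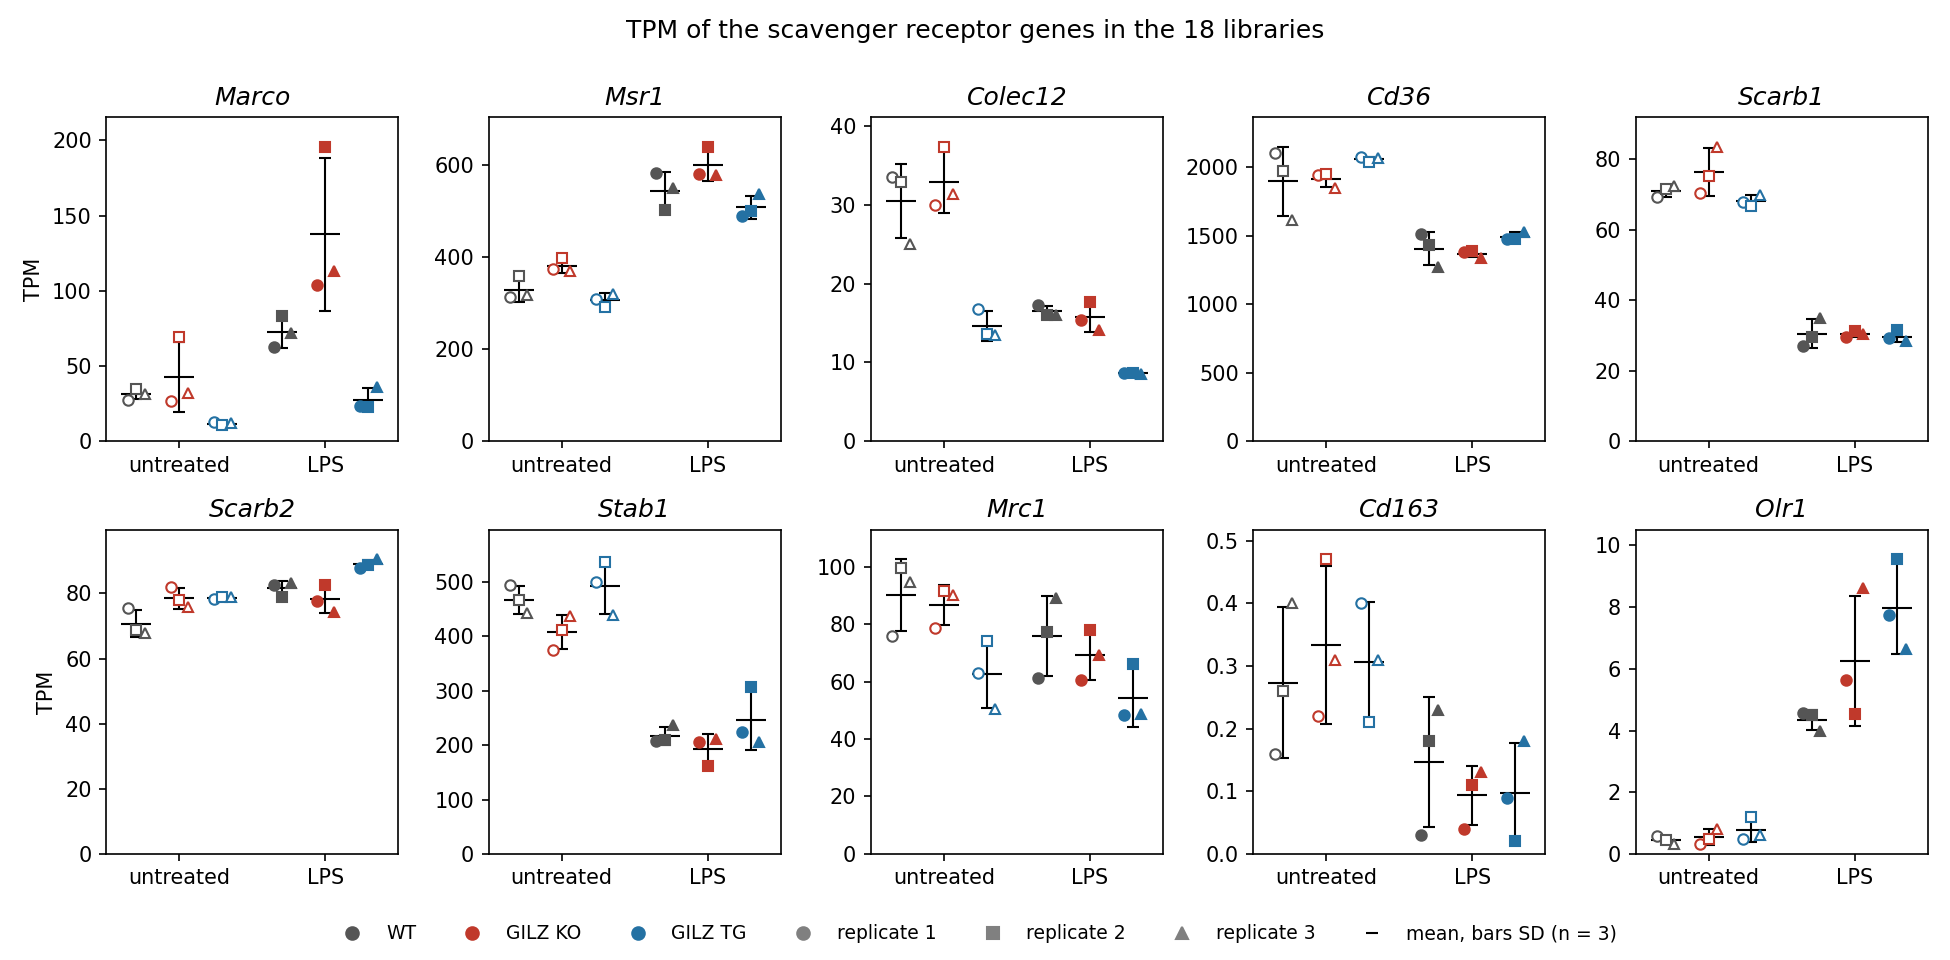
TPM of each gene on the y axis (each panel from 0, with its own scale) in untreated and LPS-treated BMMs on the x axis; colors are genotypes, symbols are replicates, horizontal lines are means and bars are SD of 3 libraries. The 3 GILZ TG libraries were the lowest for Marco and Colec12 in either treatment, while the LPS-treated libraries were all above the untreated ones for Msr1 and Olr1 and all below them for Scarb1 and Stab1.

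Marco, the macrophage receptor with collagenous structure that binds bacteria and unopsonized particles, showed the largest called difference between genotypes among the members. The gene (ENSMUSG00000026390) is on the minus strand at chr1:120474538-120505024 of GRCm38. Its promoter is shown because the gene moved with genotype and with LPS. The 250 bases before the start site (chr1:120505025-120505274, minus strand, RefSeq, GRCm38.p6) are written 5′ to 3′, and capitals mark matches on either strand to the letters of NF-κB (GGGNNNNNCC), PU.1 (GAGGAA), AP-1 (TGANTCA), a nuclear receptor core (AGGTCA) or a Maf core (TGCTGAC):
Marco: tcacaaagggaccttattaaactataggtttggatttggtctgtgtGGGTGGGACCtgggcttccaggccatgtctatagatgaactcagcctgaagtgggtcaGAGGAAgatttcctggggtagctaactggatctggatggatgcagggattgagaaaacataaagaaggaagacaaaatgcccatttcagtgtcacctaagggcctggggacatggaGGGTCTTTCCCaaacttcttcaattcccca
NF-κB letters began at bases -204, -30 and -29, with the latter pair overlapping, and PU.1 letters at -146 from the start site. At least 1 match was also present in 45.8% of 32841 promoter windows of this length for NF-κB and in 23.3% for PU.1, so such matches are common.

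In untreated cells, Marco was at 27.7, 34.7 and 31.7 TPM in the WT libraries, at 26.6, 69.2 and 32.4 TPM in GILZ KO and at 12.8, 10.6 and 11.9 TPM in GILZ TG. All GILZ TG libraries were below all others, whereas WT and GILZ KO overlapped and GILZ KO replicate 2 stood high. After LPS the values were 62.7, 83.2 and 71.7 TPM in WT, 103.7, 195.8 and 112.9 TPM in GILZ KO and 23.4, 23.1 and 36.3 TPM in GILZ TG. Here no pair of genotypes overlapped, and GILZ KO replicate 2 was again the highest library. The log2 fold change of GILZ KO against GILZ TG was 1.83 (SE 0.312, adjusted p = 0.0156 by the edgeR quasi-likelihood test) without treatment, a 3.57-fold difference. After LPS it was 2.32 (SE 0.262, adjusted p = 0.00352 by edgeR), a 4.99-fold difference. Without GILZ KO replicate 2 the untreated difference was 1.29 and kept its call. Against WT, GILZ TG was lower by a log2 fold change of -1.40 after LPS (SE 0.257, adjusted p = 0.0459 by edgeR), while without treatment the value of -1.43 (SE 0.311) had an adjusted p of 0.0864 by edgeR. The untreated difference passed in 4 of 18 alternatives, with a log2 fold change between -1.535 and -1.342 over all of them. GILZ KO against WT gave 0.40 (SE 0.290, adjusted p = 0.674 by edgeR) without treatment, which turned to -0.14 without GILZ KO replicate 2. After LPS it gave 0.91 (SE 0.249, adjusted p = 0.277 by edgeR), or 0.56 without GILZ KO replicate 2. The latter comparison passed only without the filter on low counts (adjusted p = 0.0141 by edgeR).

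The calls on Marco depended on single libraries to different degrees. The untreated difference of GILZ KO and GILZ TG had an adjusted p of 0.0797 by edgeR without GILZ TG replicate 2, and the range over 18 alternatives was 6.57e-05 to 0.1655. GILZ TG against WT after LPS was close to the threshold and was lost in 9 of 18 alternatives, with an adjusted p between 3.81e-05 and 0.525. It was lost without WT replicate 1 (0.0679), 2 (0.195) or 3 (0.0926), without GILZ KO replicate 3 (0.0813) and without GILZ TG replicate 1 (0.179) or 2 (0.216), all by edgeR. With only the compared libraries (0.0512 by edgeR) and with limma on log2(TPM + 1) (0.0564) it was lost as well. Its log2 fold change stayed between -1.66 and -0.97, the latter with GILZ TG replicates 1 and 2 left out together. With GILZ TG replicates 1 and 2 both left out, the difference of GILZ KO and GILZ TG was 1.80 without treatment and 1.88 after LPS (adjusted p = 0.1655 and 0.07235 by edgeR), so the calls were lost. In that library the stromal sum was 9.75 TPM without treatment and 10.3 TPM after LPS, against 4.88 to 21.8 TPM in WT and GILZ KO. Its neutrophil lineage sum of 62.2 and 79.3 TPM was slightly above the highest of the other genotypes, 56.3 TPM without treatment and 73.0 TPM after LPS. Marco was at 11.9 and 36.3 TPM in it.

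Colec12, a collectin with a membrane anchor that binds carbohydrates and oxidized lipoproteins, gave the most stable genotype difference. The gene (ENSMUSG00000036103) is on the plus strand at chr18:9707595-9882644. Without treatment it was at 33.5, 32.8 and 25.0 TPM in WT, at 29.97, 37.4 and 31.4 TPM in GILZ KO and at 16.8, 13.6 and 13.5 TPM in GILZ TG. After LPS it was at 17.3, 16.04 and 16.07 TPM in WT, at 15.4, 17.7 and 14.1 TPM in GILZ KO and at 8.70, 8.66 and 8.58 TPM in GILZ TG. In both treatments GILZ TG was below all libraries of the other genotypes, which overlapped each other. The log2 fold change of GILZ TG against WT was -1.07 without treatment (SE 0.120, adjusted p = 0.00461 by edgeR) and -0.93 after LPS (SE 0.0897, adjusted p = 0.000940 by edgeR). GILZ KO against GILZ TG gave 1.14 without treatment (SE 0.120, adjusted p = 0.00203 by edgeR) and 0.85 after LPS (SE 0.0910, adjusted p = 0.00255 by edgeR). Against WT, GILZ KO differed by 0.08 and -0.08 only. The difference from WT passed the threshold in all 18 alternatives in either treatment. With only GILZ TG replicate 3 it was -1.16 without treatment and -0.91 after LPS (adjusted p = 0.0484 and 0.0332 by edgeR). The difference from GILZ KO with this single library was 1.24 and 0.83 (adjusted p = 0.0325 and 0.0618 by edgeR), so that the latter call was lost.

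Colec12 and Marco were the only members that passed the threshold between genotypes in these tests. Between GILZ KO and WT, 0 of 10 members passed without treatment and 0 of 9 after LPS, where 0.0951% and 0.0822% of all genes tested did. At an unadjusted p under 0.05 there were 0 members without treatment and 1 after LPS, Marco, and DESeq2 gave the same counts at this limit and 0 at an adjusted p under 0.05. Between GILZ TG and WT, 1 of 10 members was lower without treatment, against 0.642% of all genes called, and 2 of 9 were lower after LPS, against 0.46%. Between GILZ KO and GILZ TG, 2 of 10 and 2 of 9 members were higher in GILZ KO, against 4.94% and 2.6% of all genes. The median log2 fold change of the members was between -0.04 and 0.13 over these 6 comparisons, and that over all genes tested between -0.0040 and 0.0069. Cd163 was too low after LPS to be tested between genotypes.

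**Figure D2:**
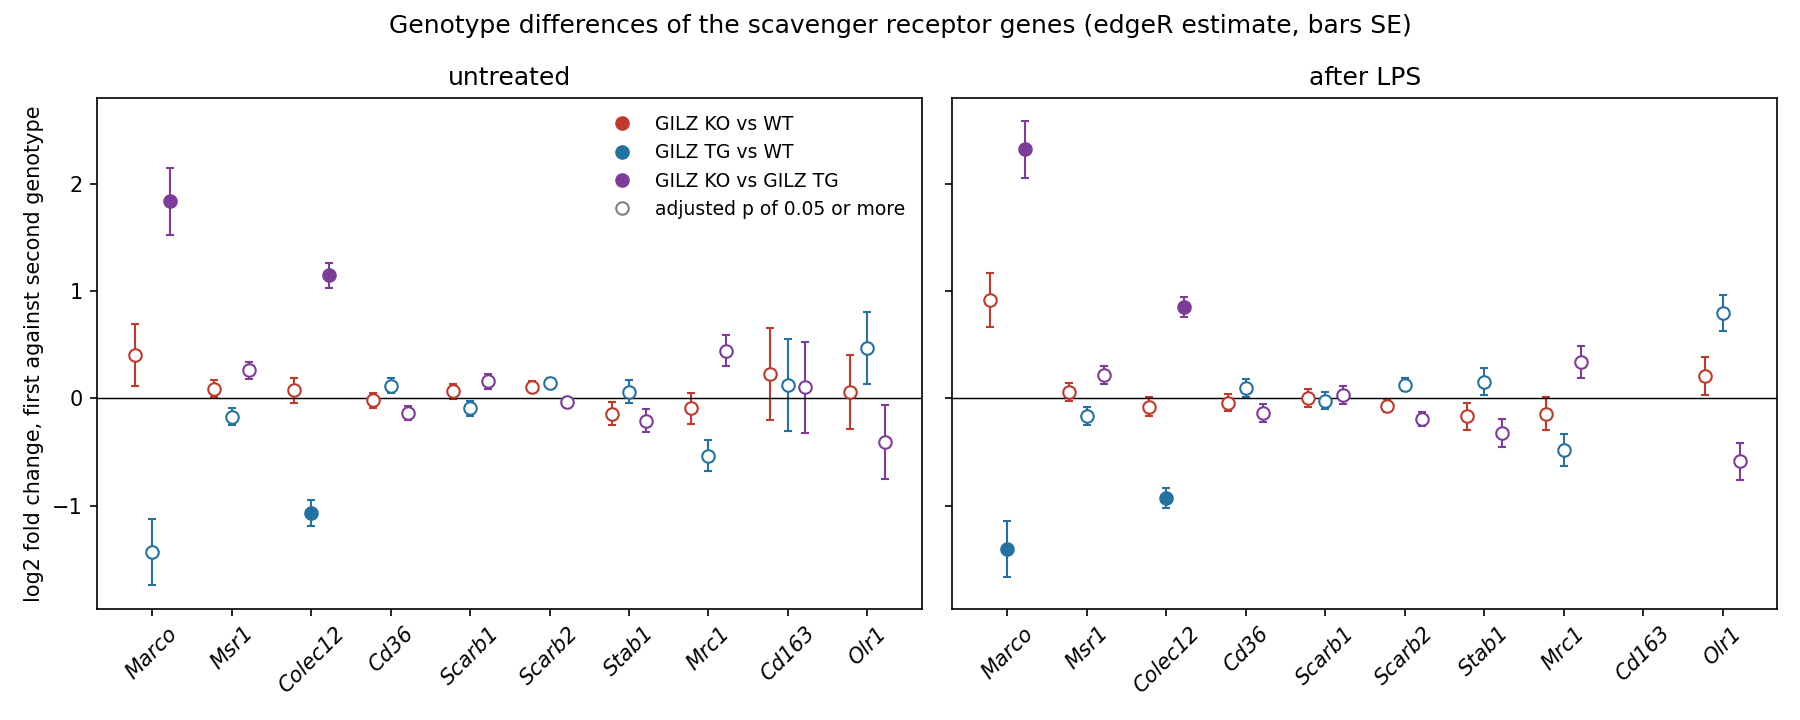
Log2 fold change between genotypes (y axis) of each gene (x axis) without treatment and after LPS, from edgeR with SE as bars; filled points have an adjusted p under 0.05. Filled points are seen for Marco and Colec12 only, and those with GILZ TG as the first genotype are below 0 while those with GILZ TG as the second are above 0.

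Of the other members, Mrc1, the endocytic receptor for mannose-rich glycans, was at 75.9, 99.5 and 94.7 TPM in untreated WT, at 78.5, 91.4 and 90.0 TPM in GILZ KO and at 63.0, 74.2 and 50.5 TPM in GILZ TG. All untreated GILZ TG libraries were below the other genotypes, with a log2 fold change against WT of -0.53 (SE 0.144, adjusted p = 0.146 by edgeR). With DESeq2 this difference had an adjusted p of 0.0108, and over 18 alternatives the range was 0.0108 to 0.455. Without GILZ TG replicates 1 and 2 it was -0.83 (adjusted p = 0.175 by edgeR). After LPS the groups overlapped, with 61.2 to 89.1 TPM in WT, 60.4 to 77.8 TPM in GILZ KO and 48.4 to 66.2 TPM in GILZ TG. The log2 fold change of GILZ TG against WT was then -0.48 (SE 0.149, adjusted p = 0.174 by edgeR).

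Msr1, the class A receptor for acetylated lipoproteins and lipid A, was between 370 and 399 TPM in untreated GILZ KO and between 293 and 320 TPM in GILZ TG, without overlap. Their log2 fold change was only 0.26 (SE 0.0786, adjusted p = 0.0767 by edgeR). Leaving out GILZ TG replicates 1 and 2 lowered this to 0.12. After LPS, Olr1 was at 4.58, 4.49 and 3.97 TPM in WT and at 7.73, 9.55 and 6.63 TPM in GILZ TG, which did not overlap, while GILZ KO with 5.63, 4.55 and 8.61 TPM overlapped both. GILZ TG exceeded WT by a log2 fold change of 0.79 (SE 0.171, adjusted p = 0.0782 by edgeR). For GILZ TG against WT after LPS, DESeq2 called 1 member higher and 3 lower, as did edgeR without the filter on low counts. Scarb2, Scarb1, Cd36 and Stab1 differed by at most 0.32 on the log2 scale between any genotypes, with adjusted p-values of 0.122 or more by edgeR. The narrow spread of Scarb2 nevertheless kept GILZ TG (87.7 to 90.5 TPM) apart from WT (78.8 to 83.1 TPM) and GILZ KO (74.3 to 82.7 TPM) after LPS.

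LPS itself moved most members, and the direction of several of them depended on the scale. By TMM, which sets the bulk of the genes to no change, the median log2 fold change over all genes tested was -0.02 in each genotype. With library totals as the only scaling it was -0.70 in WT, -0.66 in GILZ KO and -0.69 in GILZ TG. The share of calls that were higher after LPS was 48.9%, 48.4% and 48.9% by TMM and 18.9%, 18.8% and 18.5% by library totals. On log2(TPM + 1) the median was -0.51, -0.52 and -0.51, so a gene can keep its TPM and be higher by TMM. By TMM, 8 of 10 members passed the threshold in WT (6 higher, 2 lower), 7 in GILZ KO (4 higher, 3 lower) and 7 in GILZ TG (5 higher, 2 lower). Of all genes tested, 68.6%, 68.5% and 68.7% did so, so the share among the members was not far from that of all genes. The members' median was 0.29, 0.23 and 0.30. By library totals, 4 members were higher and 4 lower in WT, 3 and 5 in GILZ KO, and 4 and 5 in GILZ TG. Of the 13169 genes tested, 11090, 10894 and 11041 passed on this scale.

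Olr1, Marco and Msr1 were higher after LPS in each genotype, on either scale and in all 26 alternatives. Olr1 (ENSMUSG00000030162, minus strand, chr6:129485244-129507165) started from 0.57, 0.45 and 0.31 TPM in WT and from 0.31 to 1.19 TPM in all untreated libraries. After LPS no library was below 3.97 TPM. The log2 fold change was 3.87 in WT (SE 0.247), 4.00 in GILZ KO (SE 0.255) and 4.18 in GILZ TG (SE 0.238), with adjusted p-values of 2.67e-10, 2.84e-10 and 5.83e-11 by edgeR. By library totals it was 3.19, 3.36 and 3.51. Its level remained low despite this rise, and 13 to 41 reads per untreated library support the starting values. Its promoter is shown as that of the member with the largest response to LPS (chr6:129507166-129507415, minus strand, RefSeq, GRCm38.p6), with capitals as above:
Olr1: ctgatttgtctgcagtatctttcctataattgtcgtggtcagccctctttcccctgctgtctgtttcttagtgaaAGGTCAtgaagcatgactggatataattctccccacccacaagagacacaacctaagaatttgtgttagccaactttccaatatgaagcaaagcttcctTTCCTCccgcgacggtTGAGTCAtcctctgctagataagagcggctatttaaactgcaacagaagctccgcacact
It held AP-1 letters at -60, PU.1 letters at -76 and the nuclear receptor core at -175, which occurred in 2217, 7638 and 4607 of the 32841 promoter windows. No NF-κB letters were found in this window.

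Msr1 (ENSMUSG00000025044, minus strand, chr8:39581685-39642673) rose from 313, 360 and 317 TPM to 583, 503 and 551 TPM in WT. The increase was of the same order in GILZ KO, from 374, 399 and 370 to 581, 641 and 579 TPM, and in GILZ TG, from 310, 293 and 320 to 490, 500 and 537 TPM. The log2 fold changes were 1.41, 1.35 and 1.41 by TMM (SE 0.0904, 0.0904 and 0.0905, adjusted p = 2.87e-10, 5.68e-10 and 2.83e-10 by edgeR) and 0.73, 0.71 and 0.73 by library totals. Marco rose by 1.84 in WT (SE 0.312), 2.33 in GILZ KO (SE 0.314) and 1.86 in GILZ TG (SE 0.337), and by 1.16, 1.68 and 1.18 by library totals. In GILZ TG the rise of Marco was 2.28 when replicates 1 and 2 were left out. GILZ TG had the lowest Marco before and after treatment, and its level after LPS (23.1 to 36.3 TPM) was at about the level of untreated WT (27.7 to 34.7 TPM). This holds in TPM, and a comparison between treatments depends on the scale.

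Scarb1 and Stab1 were lower after LPS in each genotype and on either scale. Scarb1 (ENSMUSG00000037936, minus strand, chr5:125277087-125341094) encodes the receptor that takes up cholesteryl esters from high-density lipoprotein. It fell from 69.2, 71.4 and 72.4 TPM to 27.0, 29.6 and 35.0 TPM in WT, and in all genotypes from between 66.6 and 83.5 TPM to between 27.0 and 35.0 TPM. The log2 fold changes were -0.60, -0.69 and -0.54 by TMM in WT, GILZ KO and GILZ TG (SE 0.0773, 0.0787 and 0.0771) and -1.28, -1.33 and -1.21 by library totals. The call held in all 26 alternatives in each genotype. Stab1 (ENSMUSG00000042286, minus strand, chr14:31139013-31168641) was at 494, 466 and 442 TPM in untreated WT and at 207, 209 and 236 TPM after LPS. In GILZ KO it went from 375, 411 and 438 to 206, 162 and 212 TPM and in GILZ TG from 499, 538 and 439 to 224, 308 and 206 TPM. The log2 fold changes by TMM were -0.39, -0.44 and -0.31 (SE 0.126 each, adjusted p = 0.0109, 0.00500 and 0.0381 by edgeR), and by library totals -1.07, -1.08 and -0.97. In GILZ TG the call by TMM was lost without untreated replicate 1 or 2 or LPS replicate 1 or 3 (adjusted p between 0.0849 and 0.192 by edgeR). It was also lost with only the compared libraries (0.112 by edgeR) and with the size factors of DESeq2 (0.0528 by edgeR). With replicates 1 and 2 left out together the value was -0.33. With a block on the replicate number it was -0.32 (SE 0.0692) and kept its call (adjusted p = 0.00118 by edgeR). The Stab1 promoter is shown as that of the abundant member that was lower after LPS (chr14:31168642-31168891, minus strand, RefSeq, GRCm38.p6):
Stab1: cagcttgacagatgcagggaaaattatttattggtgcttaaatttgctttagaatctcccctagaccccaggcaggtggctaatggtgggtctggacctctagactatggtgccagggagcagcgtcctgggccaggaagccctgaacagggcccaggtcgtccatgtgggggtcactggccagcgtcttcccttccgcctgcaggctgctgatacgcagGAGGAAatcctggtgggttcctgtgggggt
It held PU.1 letters at -30 and none of the other 4 motifs. Among the 7 members with an entry in the promoter table, NF-κB letters were found in 5 (Marco, Mrc1, Cd36, Scarb2 and Cd163), PU.1 letters in 4 (Marco, Mrc1, Olr1 and Stab1) and Maf core letters in 0. Over all 32841 promoter windows the shares were 45.8%, 23.3% and 3.81%, and no excess among the members was tested. For Cd36 and Cd163 the bases after the start site did not match an annotated transcript. The windows of Cd36 and Scarb2 lay within the annotated span of these genes.

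Colec12 was lower after LPS by 0.43 in GILZ KO (SE 0.112, adjusted p = 0.00263 by edgeR), but the values of -0.25 in WT and -0.12 in GILZ TG had adjusted p-values of 0.0521 and 0.370 by edgeR. In WT it passed as lower in 12 of 26 alternatives, and in GILZ TG in 2 of 26. By library totals it was lower in all genotypes, with -0.93, -1.07 and -0.79, and its TPM did not overlap between treatments in any of them. For Cd36 and Mrc1 the sign depended on the scale in each genotype. For Scarb2 it did so in GILZ KO only, where the value by library totals was -0.01 (adjusted p = 0.886 by edgeR). Cd36 (ENSMUSG00000002944, minus strand, chr5:17781690-17888801), a fatty acid and lipoprotein receptor, was at 2100.9, 1974.8 and 1614.7 TPM in untreated WT and at 1510.5, 1429.8 and 1271.6 TPM after LPS. In GILZ KO it changed from 1849.7 to 1951.9 TPM down to 1338.4 to 1390.3 TPM and in GILZ TG from 2038.1 to 2071.7 TPM down to 1475.2 to 1528.1 TPM. Its log2 fold change was 0.20, 0.15 and 0.17 by TMM (SE 0.0780, 0.0780 and 0.0779), of which WT passed with an adjusted p of 0.0316 by edgeR. In GILZ KO and GILZ TG it passed as higher in 3 and 5 of 26 alternatives. By library totals it was -0.48, -0.49 and -0.50, and all 3 passed (adjusted p = 3.74e-06, 3.53e-06 and 2.18e-06 by edgeR). The call in WT by TMM was lost without any of 10 single libraries, namely WT untreated replicates 2 and 3, all GILZ KO and GILZ TG untreated replicates and WT LPS replicates 1 and 2 (adjusted p between 0.0902 and 0.419 by edgeR).

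Mrc1 (ENSMUSG00000026712, plus strand, chr2:14229392-14332057) gave 0.38, 0.31 and 0.43 by TMM and -0.29, -0.33 and -0.24 by library totals. None of the values by library totals passed (adjusted p = 0.116, 0.0765 and 0.195 by edgeR). In GILZ KO it passed as higher in 3 of 26 alternatives. By TMM it passed in WT and GILZ TG (adjusted p = 0.0424 and 0.0253 by edgeR). These calls were lost without any of 11 single libraries in WT (all WT and GILZ KO untreated replicates, GILZ TG untreated replicates 1 and 2, WT LPS replicates 2 and 3 and GILZ KO LPS replicate 3) with adjusted p-values of 0.0517 to 0.2505 by edgeR. In GILZ TG the call was lost without untreated replicate 1 or 3 or LPS replicate 2 (0.0598 to 0.135 by edgeR). With replicates 1 and 2 left out together the value was 0.62. With a block on the replicate number Mrc1 in GILZ TG was 0.44 by TMM (SE 0.0647) and kept its call (adjusted p = 5.47e-05 by edgeR). Scarb2 (ENSMUSG00000029426, minus strand, chr5:92441314-92506833), which carries glucocerebrosidase to the lysosome, was between 68.0 and 81.8 TPM untreated and between 74.3 and 90.5 TPM after LPS. It was higher by 0.84, 0.63 and 0.81 by TMM (SE 0.0555, 0.0560 and 0.0554). By library totals the values were 0.16, -0.01 and 0.14. In GILZ KO the increase was thus absent by library totals and on log2(TPM + 1) (-0.0049), while the size factors of DESeq2 gave 0.66. Cd163 (ENSMUSG00000008845, plus strand, chr6:124304656-124330527) was between 0.16 and 0.47 TPM untreated and between 0.02 and 0.23 TPM after LPS, with at most 26 reads in any library. Its log2 fold changes of -0.27, -1.27 and -1.07 had SEs of 0.614, 0.714 and 0.643, and none passed by TMM in the fit of all 18 libraries. In GILZ KO it passed as lower when only the compared libraries were fitted (adjusted p = 0.0370 by edgeR). By library totals it was lower in GILZ KO and GILZ TG, by 1.90 and 1.74 on the log2 scale (adjusted p = 0.0184 and 0.0173 by edgeR), and limma on log2(TPM + 1) also gave a lower level in both (adjusted p = 0.0171 and 0.0304). The same-numbered GILZ TG libraries correlated across treatments, and a replicate block turned the calls of Cd163 and Cd36 in GILZ TG. With it, Cd163 was lower by 1.15 (adjusted p = 0.0440 by edgeR) and Cd36 higher by 0.17 by TMM (adjusted p = 0.00326 by edgeR).

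**Figure D3:**
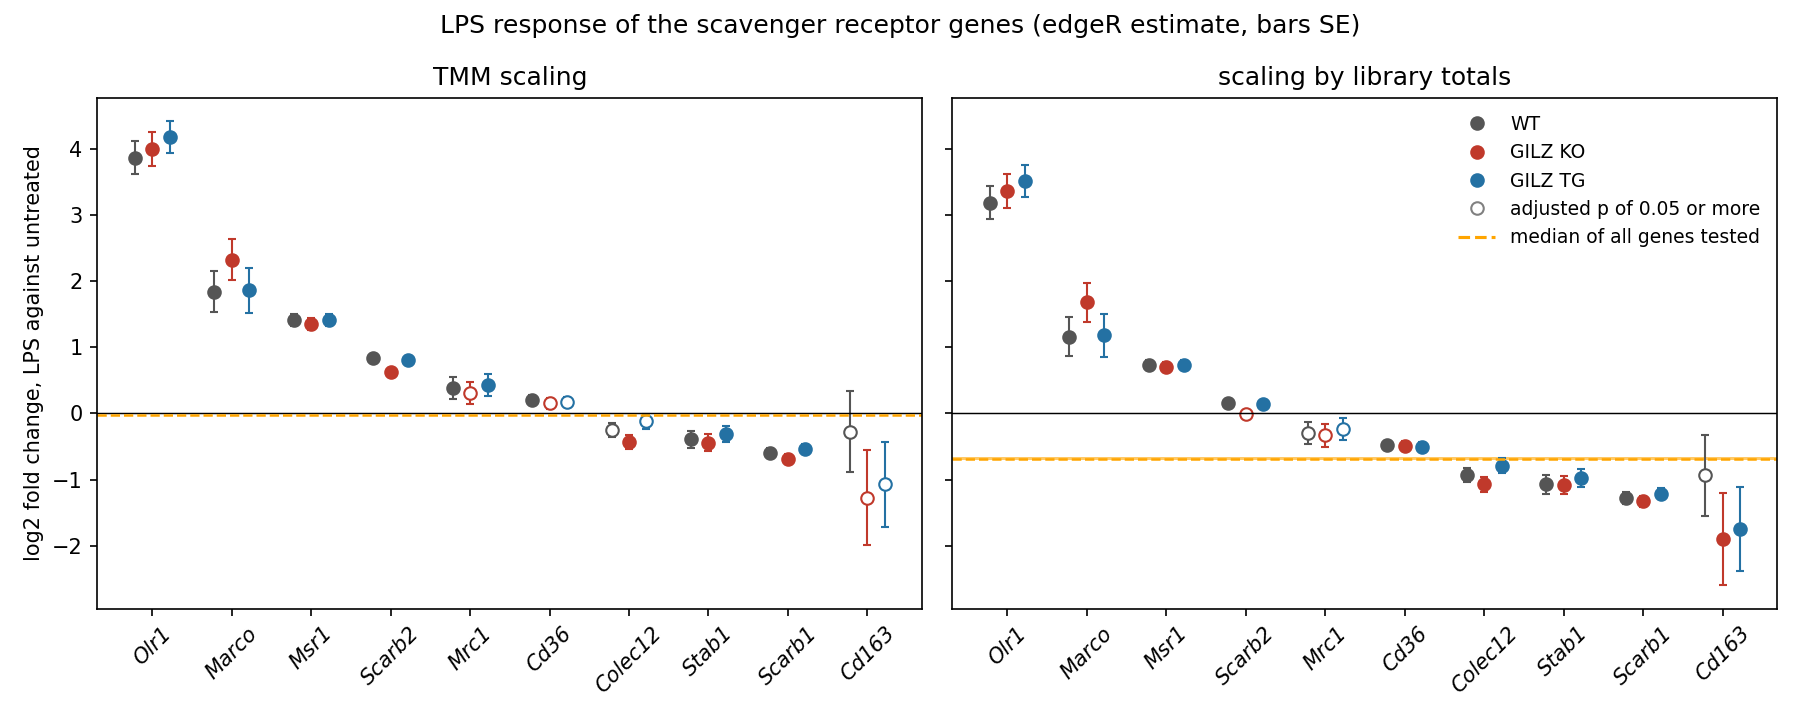
Log2 fold change after LPS (y axis) of each gene (x axis) in the 3 genotypes, from edgeR with SE as bars, with TMM (left) and with library totals only (right); the dashed line is the median of all genes tested and open points have an adjusted p of 0.05 or more. All points lie lower on the right, where the median of all genes is near -0.7 and Cd36 and Mrc1 are below 0.

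Whether the response to LPS differed between genotypes was tested directly as the difference of the log2 fold changes. None of the 10 members passed, where 0.0152% of all genes did so for GILZ KO against WT, 0.00759% for GILZ TG against WT and 0.121% for GILZ KO against GILZ TG. At an unadjusted p under 0.05, 1, 0 and 1 members were found by edgeR, in both cases Scarb2, and DESeq2 called 0 members in each. The Scarb2 response was smaller in GILZ KO by 0.20 than in WT (SE 0.0786, adjusted p = 0.696 by edgeR) and by 0.18 than in GILZ TG (SE 0.0784, adjusted p = 0.443 by edgeR). For Marco the difference was 0.49 between GILZ KO and WT (SE 0.430) and 0.02 between GILZ TG and WT (SE 0.446). For Colec12 it was -0.31 between GILZ KO and GILZ TG (SE 0.161, adjusted p = 0.559 by edgeR).

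The other genes of the same pathway were taken from 3 lists, and few of them differed between genotypes. Of 15 further scavenger receptor genes, 8 or 9 were tested, and Clec7a, the β-glucan receptor dectin-1, was the only one that passed. It was at 31.1, 23.3 and 23.7 TPM in untreated WT, at a mean of 24.8 ± 4.56 TPM in GILZ KO (SD, n = 3) and at 67.5, 69.3 and 46.9 TPM in GILZ TG. After LPS it was at 26.4 to 31.7 TPM, 31.7 to 42.5 TPM and 52.0 to 61.5 TPM. GILZ TG was above all other libraries in both treatments, and without treatment its replicates 1 and 2, which had the raised stromal, neutrophil lineage and B lineage sums, were the highest. The log2 fold change against WT was 1.21 without treatment and 1.01 after LPS (SE 0.147 and 0.109, adjusted p = 0.00708 and 0.00219 by edgeR), and GILZ KO against GILZ TG gave -1.41 and -0.76. Without GILZ TG replicates 1 and 2, the untreated calls of Clec7a were lost, with 0.93 against WT and -1.13 for GILZ KO against GILZ TG (adjusted p = 0.128 and 0.0509 by edgeR). Those after LPS held, with 1.13 and -0.89 (adjusted p = 0.0106 and 0.0437 by edgeR). The untreated difference from WT was also lost without WT replicate 2 (0.0577 by edgeR), and that of GILZ KO and GILZ TG after LPS without GILZ KO replicate 1 (0.0603 by edgeR). Of 14 genes for co-receptors, signalling and ligand handling, 12 were tested, and Fabp4, a lipid carrier, passed for GILZ KO against GILZ TG with -0.65 without treatment and -0.66 after LPS (adjusted p = 0.0110 and 0.0333 by edgeR). Without GILZ TG replicates 1 and 2 the values were -0.67 and -0.93 (adjusted p = 0.109 and 0.0254 by edgeR). The call without treatment was also lost without GILZ KO replicate 2, and that after LPS without any GILZ KO replicate, GILZ TG replicate 1 or WT replicate 2 (adjusted p between 0.0503 and 0.165 by edgeR). Of 8 transcription factor genes known to act on the members, 0 passed between genotypes.

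After LPS, 9 of the 12 tested genes for co-receptors, signalling and ligand handling were higher by TMM and 1 was lower in each genotype, where 68.5% to 68.7% of all genes were called and 48.4% to 48.9% of these calls were higher. By library totals, where 18.5% to 18.9% of all calls were higher, 7, 7 and 6 of the 12 were higher and 4, 5 and 4 lower in WT, GILZ KO and GILZ TG. Tlr6, a co-receptor of Tlr2 that works with CD36, rose by 2.75 in WT, 2.51 in GILZ KO and 2.80 in GILZ TG (adjusted p of at most 5.71e-12 by edgeR). Fabp4 rose by 2.46, 2.51 and 2.55, Lyn, a kinase downstream of CD36, by 2.37 in WT, and Tlr2 by 2.40 in GILZ TG. Mean Lyn went from 96.5 to 321.9 TPM in WT, from 98.7 to 304.0 TPM in GILZ KO and from 102.6 to 305.5 TPM in GILZ TG. Mean Tlr2 went from 125.5 to 408.6 TPM, from 126.7 to 406.7 TPM and from 103.8 to 352.5 TPM in the same order. Of the 8 transcription factor genes, 5, 6 and 5 were higher and 2 lower by TMM, and 4, 5 and 4 higher and 3, 2 and 3 lower by library totals. Pparg, the nuclear receptor that drives Cd36, fell by 2.34 on the log2 scale in GILZ KO (SE 0.0731), from 36.8 to 38.8 TPM down to 4.54 to 5.09 TPM. The mean of Pparg also went from 36.6 to 5.07 TPM in WT and from 32.2 to 4.91 TPM in GILZ TG. Maf rose by 2.41 in GILZ TG, where its mean went from 45.3 to 142.5 TPM. In WT the mean of Maf went from 55.2 to 159.6 TPM and in GILZ KO from 47.9 to 135.4 TPM. Of 10 further scavenger receptor genes tested, 4, 4 and 5 were higher and 1, 2 and 0 lower by TMM, and 3, 4 and 3 higher and 5 lower in each genotype by library totals. Megf10 was the one with the largest change in WT and GILZ KO (-3.12 and -3.29), but was at 0.24 TPM or less in all libraries. All genes named in this paragraph had the same direction by library totals.

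The genes most like each member were ranked by Pearson's r of log2(TPM + 1) over the 18 libraries, among 9423 genes with a mean of at least 5 TPM. These libraries share the large effect of LPS, which many genes follow, so the values are a description. Marco was most like Bst1 (r = 0.931), Gbgt1 (0.877) and Zdhhc2 (0.877), and Colec12 most like Znf41-ps (0.940), Zfp992 (0.924) and Tpp2 (0.918). For Scarb1 (Nt5dc2, 0.995), Stab1 (Acd, 0.985), Olr1 (Polr2g, 0.983), Msr1 (Sh3kbp1, 0.983) and Cd36 (Hexa, 0.975) the nearest gene was closer. Scarb2 (Rgs1, 0.843) and Mrc1 (Iqgap2, 0.825) had the least similar nearest genes, and Colec12 was the third gene in the ranking of Mrc1 (0.769).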

How the data were processed

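RNA-Seq was made from poly(A) RNA of 18 BMM cultures. The authors' pipeline (grape-nf, GRCm38) deposited, per gene and library, an expected count (an estimated number of reads, not normalized) and TPM (scaled by transcript length and library total). Gene names came from the authors' deposited DESeq2 tables, whose log2 fold changes and p-values were not used. 14 rows with no gene identifier were left out. The members and lists were chosen with earlier results of these data known, and all 10 members were named.

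Counts were rounded, filtered by filterByExpr, scaled by TMM and compared by edgeR 4.0.16 (R 4.3.3, quasi-likelihood F test). Genotypes were compared in the 9 libraries with the same treatment, and LPS effects in all 18. P-values were adjusted over all genes tested (Benjamini-Hochberg, threshold 0.05), and SEs were derived from the F statistics. Alternatives were DESeq2 1.42.0, its size factors, library totals, no filter, limma 3.58.1 on log2(TPM + 1), other libraries in the fit, a replicate block and each library left out. Leaving out GILZ TG replicates 1 and 2 together was chosen after seeing the data. From the other lists, up to 4 called genes with the largest change were named per comparison. The genotype tests were tried on simulated untreated groups of 3 libraries with a common spread. These simulated data hold no LPS effect and no group with 1 library, so they do not cover such fits. The labels do not say what a replicate number shares. Deviations of same-numbered libraries correlated above 0.1 in 2 of 18 pairs of genotypes and, between treatments, in 1 of 3 pairs of WT, 0 of 3 of GILZ KO and 3 of 3 of GILZ TG (0.266 to 0.605). The main LPS fits and the tests of the LPS response hold no block, so their SEs and p-values for GILZ TG do not use this pairing. Blocked values of GILZ TG are given where they change a call, and for Mrc1 and Stab1. Sequences and motif shares come from RefSeq's promoter table, which held 7 of 10 members.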

Additional observations from a re-analysis of the deposited data

How the results depend on the processing

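Between genotypes, the number of the 10 genes past the threshold varied with the processing. For GILZ KO against GILZ TG without treatment it was 2, and 4 with DESeq2, 1 without GILZ TG replicates 1 and 2 together, and 1 to 3 with single libraries left out. After LPS it was 2, and 0 without those GILZ TG libraries and 2 to 4 with single libraries left out. For GILZ TG against WT without treatment it was 1, and 3 with DESeq2 and without the count filter, 2 with only the compared libraries, and 1 to 2 with single libraries left out. After LPS it was 2, and 4 with DESeq2 and without the filter, 1 with limma, with only the compared libraries and without GILZ TG replicates 1 and 2, and 1 to 3 with single libraries left out. For GILZ KO against WT it was 0, and 1 without the filter after LPS. After LPS against untreated it was 8, 7 and 7 in WT, GILZ KO and GILZ TG, where 68.6%, 68.5% and 68.7% of all genes tested passed. With single libraries left out it was 6 to 9, 7 to 8 and 5 to 8, and with only the compared libraries 6, 10 and 6. In that last setting 9265 of 12269 genes passed in GILZ KO. Over all alternatives, 8510 to 11090 genes passed in WT and 8536 to 10894 in GILZ KO. The differences in LPS response gave 0 throughout. Over all genes, DESeq2 called 1218 of 12621 for GILZ KO against GILZ TG without treatment, where the main fit called 623. For GILZ TG against WT it called 315 of 12621 without treatment and 274 of 12164 after LPS. The main fits called 81 and 56 there. Leaving a group with 1 library assumes that this library varies like the others.

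The sign after LPS turned for Cd36, Mrc1 and, in GILZ KO only, Scarb2 by library totals and by limma on log2(TPM + 1). Cd36 was -0.48 and -0.43 in WT, -0.49 and -0.48 in GILZ KO, and -0.50 and -0.46 in GILZ TG. Mrc1 was -0.29 and -0.25, -0.33 and -0.33, and -0.24 and -0.20. Scarb2 in GILZ KO was -0.0079 and -0.0049 (adjusted p = 0.886 by edgeR and 0.937 by limma). Colec12 in GILZ TG was 0.016 without replicates 1 and 2. The cause was not tested. With the replicate block, 2 and 2 members passed for GILZ KO against GILZ TG, 1 and 2 for GILZ TG against WT, 0 and 0 for GILZ KO against WT, 9 in each genotype after LPS and 0 for the responses. For GILZ KO after LPS, 9415 of 13169 genes tested passed with this block. In WT and GILZ KO it is not known whether same-numbered samples share more than a number. Over all genes, the calls for GILZ KO against GILZ TG ranged from 34 to 1306 without treatment and 24 to 1403 after LPS, for GILZ TG against WT from 16 to 665 and 15 to 1067, and for GILZ KO against WT from 5 to 79 and 4 to 100. Olr1 and Cd163 rest on few reads.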
